A study of Homo sapiens with 48 samples.

Results

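Messenger RNAs for proteins of the spliceosomal small nuclear ribonucleoproteins (snRNPs) were followed in HEK293T cells after HNEylation of NCBP1. The genes were chosen by name: symbols that begin with SNRP, SNRNP, SF3A, SF3B, PRPF or LSM and a digit, and that do not end in P followed by digits. Of the 14685 genes counted, 47 met the rule, of which 46 are protein coding. The remaining one is SNRPA1-DT, a noncoding transcript that starts beside SNRPA1. Of 54 genes with these prefixes, the ending also removed 7 true snRNP protein genes whose names run from SNRNP to a number (such as SNRNP70 and SNRNP200), and these are described apart.

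HEK293T is a human embryonic kidney cell line. All cells had been transfected transiently with a plasmid for human NCBP1, the larger cap-binding subunit, fused to Halo, on top of their own NCBP1. In T-REX, cells received the photocaged probe Ht-PreHNE, which binds Halo, were rinsed and were then lit, so that HNE was released beside NCBP1-Halo. The 3 controls are light alone, probe alone and DMSO. As the methods list them, light alone held Ht-PreHNE with light, probe alone held Ht-PreHNE without light, and DMSO held neither Ht-PreHNE nor light. Because that list gives light alone the same 2 ingredients as T-REX, what separated these arms is not clear from it. RNA was taken 3, 6 and 12 h later in 4 replicates of each arm, giving 48 libraries, which the submitters call independent biological replicates.

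Total counts lay between 23952455 and 37099535 per library (median 29405598.5), and the snRNP genes took 0.517% to 0.620% of them. The lowest count of any of the 47 genes in any library was 55, so all passed the filter on low counts. NEFL, NEFM and LHX1, markers of HEK293T cells, were present with median counts of 1681.5, 929 and 64, and the fibroblast marker COL1A1 had 109.5. A few libraries stood apart from their arm. The number of the 47 genes more than 0.3 (log2) from the median of the 4 libraries was 16 in DMSO replicate 3 at 12 h, 15 in light alone replicate 3 at 6 h, 9 in T-REX replicate 3 at 3 h and at most 6 in any other library, a distance chosen after the data were seen.

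As background, snRNPs are particles of a small nuclear RNA and proteins that recognise introns and remove them. A ring of Sm proteins assembles on the U1, U2, U4 and U5 RNAs, and a related LSM2 to LSM8 ring binds U6 RNA. U1 marks the 5′ splice site, the SF3A and SF3B complexes help U2 hold the branch point, and the U4/U6.U5 tri-snRNP brings the helicases and scaffold needed for catalysis. NCBP1 and NCBP2 form the nuclear cap-binding complex, in which NCBP2 holds the cap and NCBP1 strengthens that grip. The complex is tied to splicing and to the export of snRNA, which is the question behind reading these genes after its modification.

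SNRPD3 is the Sm gene on which the comparisons below turn. Its promoters are shown with those of SF3A1 and of SF3B2, the only gene called higher. For SF3A1, a U2 protein, the study followed the association of the protein with NCBP1. It did the same for PRPF4, whose window is not printed. The windows run from 250 bases before to 50 bases after a transcription start of RefSeq on GRCh38.p14, a build that need not be the one used for the counts. Of the 47 genes, 38 had at least 1 such window, 46 windows in all. Capitals mark any match, on either strand, to 1 of 6 motifs. CCGGAAG is bound by factors of the ETS family. The others searched were CCAAT, known for the factor NF-Y, the E-box with its letters CACGTG, the core of the NRF-1 site written GCATGCG, the cyclic AMP element TGACGTCA, and last the TATA box, read here as TATAAA.
SNRPD3, chr22:24555400-24555699, plus strand: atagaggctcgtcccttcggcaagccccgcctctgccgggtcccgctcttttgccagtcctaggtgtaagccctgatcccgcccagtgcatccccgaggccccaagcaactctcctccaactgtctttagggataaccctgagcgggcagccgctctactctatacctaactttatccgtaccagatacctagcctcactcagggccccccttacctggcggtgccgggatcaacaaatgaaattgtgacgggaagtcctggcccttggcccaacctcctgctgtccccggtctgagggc
SNRPD3, chr22:24555749-24556048, plus strand: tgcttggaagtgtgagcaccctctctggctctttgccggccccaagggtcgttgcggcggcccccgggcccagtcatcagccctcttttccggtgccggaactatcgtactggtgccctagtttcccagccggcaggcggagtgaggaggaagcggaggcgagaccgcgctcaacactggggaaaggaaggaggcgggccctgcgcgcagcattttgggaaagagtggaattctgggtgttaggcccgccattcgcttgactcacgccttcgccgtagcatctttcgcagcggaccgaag
SF3A1, chr22:30356845-30357144, minus strand: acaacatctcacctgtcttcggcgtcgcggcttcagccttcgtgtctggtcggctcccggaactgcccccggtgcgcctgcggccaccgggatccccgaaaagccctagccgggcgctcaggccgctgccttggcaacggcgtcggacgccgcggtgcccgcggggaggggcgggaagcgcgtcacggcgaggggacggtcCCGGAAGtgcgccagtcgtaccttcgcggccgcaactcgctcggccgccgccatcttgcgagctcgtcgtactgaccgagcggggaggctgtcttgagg
SF3B2, chr11:66052114-66052413, plus strand: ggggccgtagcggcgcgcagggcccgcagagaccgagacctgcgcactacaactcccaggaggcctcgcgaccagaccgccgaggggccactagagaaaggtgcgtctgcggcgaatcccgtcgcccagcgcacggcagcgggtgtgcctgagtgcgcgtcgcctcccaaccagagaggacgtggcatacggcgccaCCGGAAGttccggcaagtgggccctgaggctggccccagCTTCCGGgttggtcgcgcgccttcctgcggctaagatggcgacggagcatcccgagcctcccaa
Neither SNRPD3 window held any of the 6 motifs, nor did the PRPF4 window. The SF3A1 window held CCGGAAG once and the SF3B2 window held it once on each strand. CCGGAAG occurred in 21 of the 46 windows of snRNP genes (45.7%), beside 16.9% of 15270 windows of 10443 counted genes. CCAAT occurred in 37.0% and 35.2%, TATAAA in 2.17% and 6.31%, CACGTG in 4.35% and 9.25%, GCATGCG in 4.35% and 5.9%, and TGACGTCA in 0% and 2.97%. Some windows belong to 1 gene or overlap, such as those of SNRPA1 and SNRPA1-DT, so that they are not independent. The median GC content was 60.3% in windows of snRNP genes and 65.0% in all windows.

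Few snRNP transcripts differed between T-REX and its controls. SNRPD3, which encodes the Sm protein SmD3, was lower against all 3 controls at 12 h. It was the only one of the 47 genes called with 1 sign against 2 or more of the controls at 12 h, and 1.4% of all genes met that rule. At 3 and 6 h, 0 of the 47 genes met it, beside 0.947% and 0.136% of all genes. Other fits gave more: DESeq2 gave 2 at 3 h (3.48% of all genes) and the replicate block 1 (1.3%), and with the deposited RUV factors as covariates there were 10 at 3 h and 3 at 6 h (14.4% and 2.34%). Fold changes are log2 values, T-REX over control, and a gene is called at an adjusted p of at most 0.05 in edgeR's quasi-likelihood test over all 14685 genes. In bulk RNA, fewer cells of a type and less RNA per cell cannot be told apart.

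Relative to light alone, the counts called at 3, 6 and 12 h were 0, 0 and 1, beside 0.197%, 0.218% and 1.29% of all genes. Relative to probe alone they were 0, 0 and 1, beside 1.05%, 0.109% and 0.701%. Relative to DMSO they were 1, 0 and 9, beside 5.99%, 0.415% and 10.9%. Before adjustment, p was at most 0.05 for 9, 9 and 9 of the 47 genes at 3 h, for 5, 4 and 9 at 6 h and for 4, 7 and 17 at 12 h, in the order light, probe and DMSO. Of all genes, 14.8%, 18.0% and 21.9% did so at 3 h, 11.7%, 6.56% and 12.4% at 6 h, and 12.9%, 11.1% and 26.9% at 12 h. The counts of 0 came from edgeR's test. DESeq2 gave 3 against light alone and 1 against probe alone at 3 h, and 0, 0 and 2 at 6 h. The shares of all genes in these single DESeq2 comparisons are not given here. By the rule of 2 or more controls, DESeq2 called 3.48% of all genes at 3 h and 0.497% at 6 h. The median log2 fold change of the 47 genes lay between -0.06 and 0.01 in the 9 comparisons, and that of all genes was at most 0.03. Apart from the DMSO comparison at 12 h, the share of snRNP genes called was at most 2.13%.

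**Figure D1:**
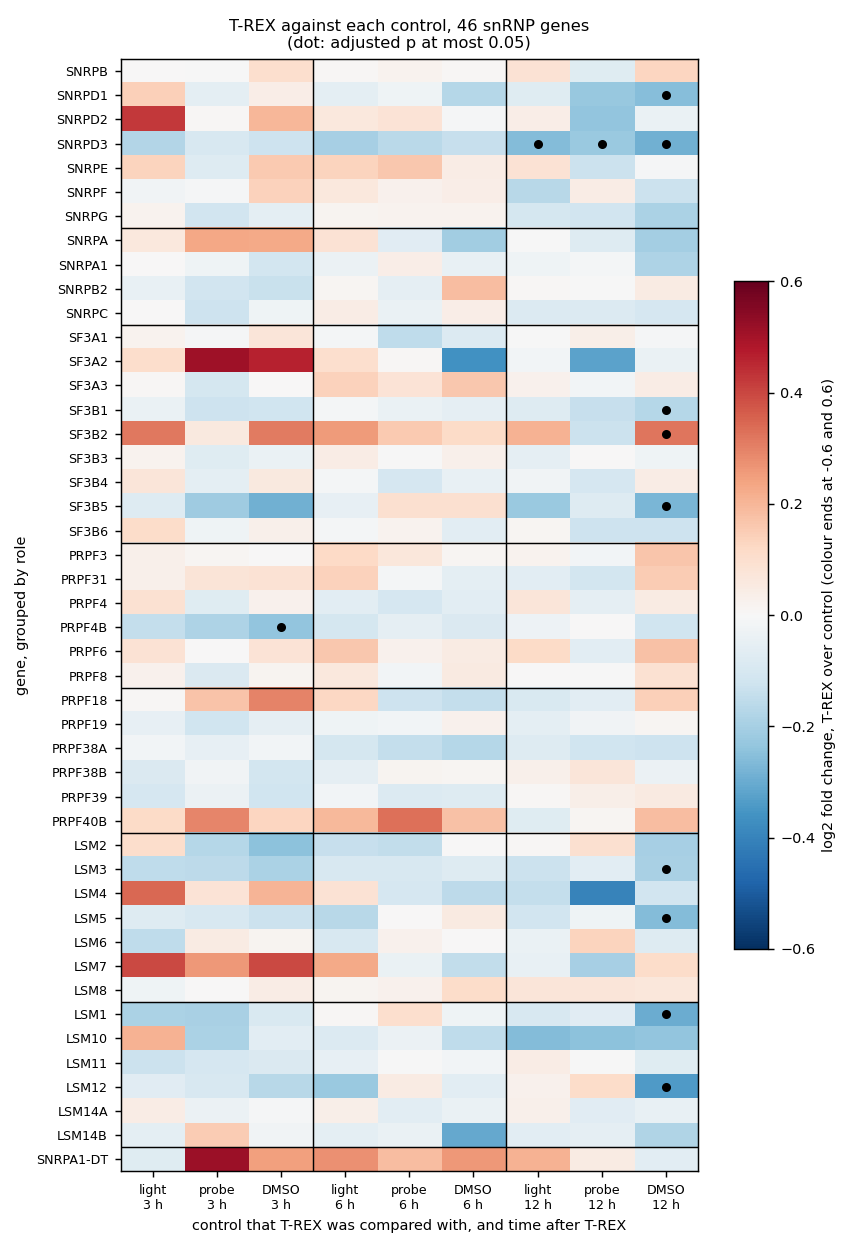
Log2 fold change of T-REX over each control (columns, by control and time in hours) for 46 of the 47 genes (rows, grouped by role and separated by lines); dots mark an adjusted p of at most 0.05. SNRPD3 is the only row with dots against all 3 controls at 12 h, and 8 of the 9 dots against DMSO at 12 h lie on negative values.

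**Figure D2:**
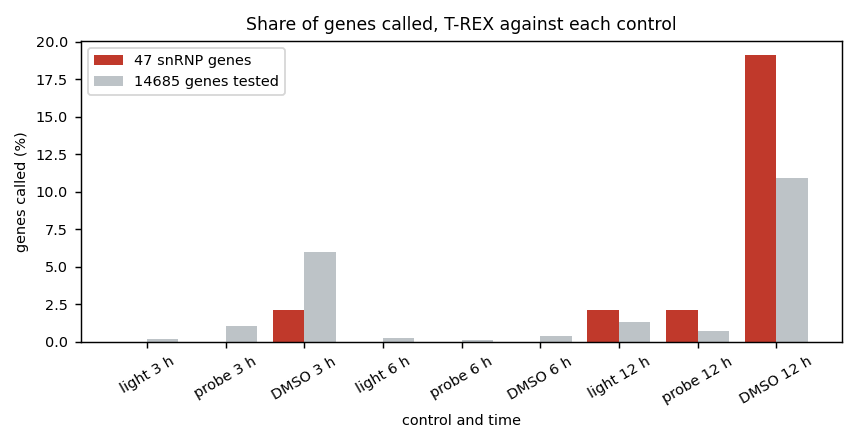
Percentage of genes called, for the 47 snRNP genes (red) and all 14685 genes tested (grey), in each comparison of T-REX with a control. The shares were low in both except against DMSO, where 19.1% of the snRNP genes and 10.9% of all genes were called at 12 h.

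For most of the genes the intervals were narrow enough to bound a change within 0.5 on the log2 scale. Differences within that bound, such as -0.20 for SNRPD3 against light alone at 6 h, were not always called. Of the 423 fold changes of a gene against a control, 390 had a 95% interval that lay wholly within 0.5 of 0 on the log2 scale, and for 35 of the 47 genes this held in all 9 comparisons. The SD between replicates of an arm had a median of 0.109 (log2) over the 47 genes and of 0.143 over all genes. It ran from 0.058 for SF3B1 to 0.327 for SF3A2, and SNRPB (0.270), SNRPD2 (0.223) and LSM7 (0.219) were also wide. Across the 47 genes, this SD was higher for a higher median GC content of the annotated transcripts (Pearson's r = 0.65, Spearman's rho = 0.60) and lower for a higher log2 mean level (r = -0.69, rho = -0.79). These genes share the same 48 libraries, and GC content and level were not separated.

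SmD3 is a core subunit of the Sm ring. At 3 h, SNRPD3 stood at 114, 108, 110.2 and 107 CPM (counts relative to the library total, scaled by TMM within a time point, so that levels at different times are on separate scales) under T-REX in replicates 1 to 4. At that time it had 123, 123, 132 and 119 after light alone, 119.9, 121, 115 and 114 after probe alone, and 121, 121, 116 and 123 with DMSO. Every T-REX library lay below every control library at 3 h, by a narrow margin for probe alone, although no comparison was called (adjusted p = 0.0752, 0.244 and 0.0914).

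At 6 h, SNRPD3 had 100.3, 108, 106 and 98.5 CPM under T-REX, 117, 122, 124 and 112 after light alone, 114, 121, 121 and 106 after probe alone, and 115, 123, 106 and 110.0 with DMSO. T-REX lay below all light alone libraries but overlapped probe alone and DMSO. The log2 fold changes were -0.20, -0.16 and -0.14, with adjusted p of 0.164, 0.557 and 0.316.

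At 12 h, SNRPD3 had 89.7, 92.0, 90.7 and 87.2 CPM under T-REX. After light alone it had 103, 112, 112 and 103, after probe alone 104, 105, 110.3 and 100.5, and with DMSO 104, 114, 117 and 104. The highest T-REX library was thus below the lowest of the 12 control libraries. Mean levels were 89.9 ± 2.04 CPM (SD, n = 4) under T-REX, 107 ± 4.97 after light alone, 105 ± 4.10 after probe alone and 109.6 ± 6.69 with DMSO.

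On the log2 scale, SNRPD3 fell by 0.26 ± 0.053 (SE) relative to light alone, with an adjusted p of 0.00768 in edgeR's test. Relative to probe alone it fell by 0.22 ± 0.053 (adjusted p = 0.0415), and relative to DMSO the drop was 0.29 ± 0.053 (adjusted p = 0.00118), a fold change of -0.29. The 95% intervals ran from -0.37 to -0.15, from -0.33 to -0.11 and from -0.39 to -0.18. Among the controls themselves at 12 h, SNRPD3 differed by -0.03 (light alone over DMSO), -0.06 (probe alone over DMSO) and 0.04 (light alone over probe alone), with adjusted p of 0.878, 0.493 and 0.839. The 3 comparisons share the T-REX libraries, and are not 3 separate observations of the change. NCBP1, whose counts take in the plasmid, differed at 12 h by 0.51 and 0.73 from light alone and DMSO and by -0.04 from probe alone, against which SNRPD3 was lower as well. Its part in the SNRPD3 difference was not tested.

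The call against DMSO held without any single 12 h library (adjusted p from 0.000485 to 0.00731). Removing light alone replicate 3 ended the call relative to light alone (adjusted p = 0.0525). The call against probe alone was lost in 12 of 16 fits without 1 library: without any T-REX or light alone replicate, without probe alone replicates 1 to 3 and without DMSO replicate 2 (adjusted p from 0.0523 to 0.185). Over the 16 fits, the log2 fold change against probe alone moved only between -0.24 and -0.20. With light alone replicate 3 removed, 0 genes were called against 2 or more controls at 12 h. With DMSO replicate 3 removed, 3 were, since SF3B2 was then also called over light alone (adjusted p = 0.0198) and SF3B1 below probe alone (adjusted p = 0.0468). The shares of all genes that met this rule in these 2 fits are not given here, so these counts are not a result about these genes. SNRPD3 was below its control in all 9 comparisons, as were LSM3, PRPF38A and SF3B1, and none of the 47 genes was above it in all 9. The share of all genes with 1 sign in all 9 is not given here, and comparisons at the same time share the T-REX libraries. Whether the T-REX effect on SNRPD3 differed between 12 and 3 h was tested as an interaction, which gave a difference of -0.12 ± 0.056 (adjusted p = 0.438, edgeR).

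**Figure D3:**
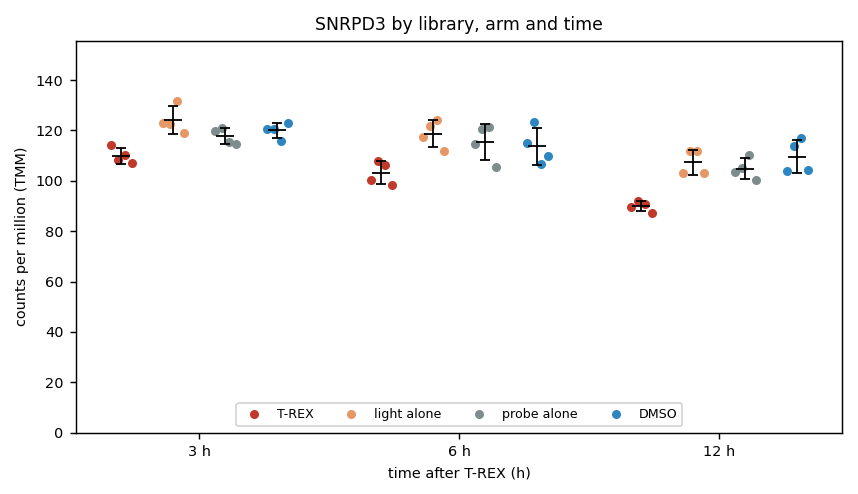
SNRPD3 in CPM (TMM, vertical axis from 0) by time after T-REX in hours; points are libraries, coloured by arm, and bars are the mean and SD of 4. At 12 h the 4 T-REX libraries sit between 87.2 and 92.0, below all 12 control libraries.

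Of the other Sm ring genes, only SNRPD1 was called in any of the 9 comparisons. SNRPD1, for SmD1 that pairs with SmD2 in the ring, was called against DMSO alone at 12 h. It had 45.7, 50.7, 44.0 and 42.8 CPM under T-REX, 46.5, 47.0, 47.5 and 51.9 after light alone, 61.4, 50.7, 55.6 and 46.7 after probe alone, and 56.2, 53.1, 62.2 and 47.3 with DMSO. T-REX overlapped every control. The log2 fold changes were -0.07 (adjusted p = 0.771), -0.23 (0.275) and -0.26 (0.0478). The DMSO call was lost in 12 of the 16 fits without 1 library. The remaining 5 Sm genes (SNRPB, SNRPD2, SNRPE, SNRPF and SNRPG) were called in no comparison of T-REX with a control. SNRPD2 ranged up to 0.42 against light alone at 3 h. Over the 7 Sm genes, the median at 12 h was -0.07 relative to light alone, -0.13 to probe alone and -0.13 to DMSO. Sm and LSM genes have processed pseudogene copies, and how reads that fit a copy were counted is not stated, which makes their levels less certain.

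Among the U1 and U2 particle proteins, SNRPA (U1-A), SNRPC (U1-C), SNRPA1 (U2-A′) and SNRPB2 (U2-B″), 0 of 4 were called in any of the 9 comparisons. Their fold changes lay between -0.21 and 0.23. The noncoding SNRPA1-DT, at a few CPM, had the largest positive value against probe alone at 3 h (0.51, 95% interval 0.12 to 0.91, adjusted p = 0.154), and it was above all 3 controls at 6 h (0.27, 0.18 and 0.26, adjusted p = 0.539, 0.905 and 0.586).

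SF3A1 is the largest SF3A subunit and bridges U2 to the early spliceosome. Its transcript held nearly the same level under T-REX and controls at 12 h: 239, 229.8, 228 and 231 CPM under T-REX, 231, 237, 233 and 227 after light alone, 225, 215, 222 and 242 after probe alone, and 252, 214, 226 and 239 with DMSO. The groups overlapped fully. The 95% intervals of its log2 fold change were -0.10 to 0.10, -0.07 to 0.14 and -0.11 to 0.10. At 6 h T-REX was below probe alone by 0.15 on the log2 scale without being called (adjusted p = 0.466), and no comparison at any time was called.

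SF3B2, an SF3B subunit that contacts pre-mRNA near the branch point, was the only gene called higher. At 12 h it had 111, 112, 108 and 111 CPM under T-REX and 101, 92.6, 64.1 and 96.3 with DMSO. After light alone it had 90.3, 93.1, 97.7 and 101, and after probe alone 126, 118, 134 and 106. T-REX thus lay above all DMSO and light alone libraries, but probe alone was higher still in 3 of its 4 libraries. The log2 fold change was 0.32 ± 0.098 against DMSO (adjusted p = 0.0424), 0.21 against light alone (0.383) and -0.13 against probe alone (0.691).

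SF3B2 was also called between controls, where probe alone exceeded DMSO by 0.45 ± 0.098 (adjusted p = 0.0144), so that the difference from DMSO was not limited to T-REX. DMSO replicate 3, with 64.1 CPM, is the low library. Without it T-REX remained called over DMSO, whereas the call was lost in 9 of the 16 fits (adjusted p up to 0.0915), including each fit without a T-REX replicate. At 3 h the T-REX libraries had 123, 134, 176 and 131 CPM and the DMSO libraries 113, 114, 113 and 115. That difference (0.31) had an adjusted p of 0.0526.

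SF3B1, the scaffold of SF3B and the target of several splicing inhibitors, was lower than DMSO at 12 h by 0.17 ± 0.044 (adjusted p = 0.0142). It had 440.0, 449.6, 423 and 429.8 CPM under T-REX, 497, 502, 478 and 482 with DMSO and 456, 462, 465 and 457 after light alone. T-REX was below every library of both arms, but the difference from light alone (-0.08, adjusted p = 0.460) was not called, nor was that from probe alone (-0.14, adjusted p = 0.179). SF3B5, a small SF3B subunit, was lower than DMSO at 12 h (-0.27, adjusted p = 0.0382) with -0.22 and -0.08 against light alone and probe alone. It had the most negative mean at 3 h. SF3A2, the widest gene, had 11.3, 13.1, 29.8 and 25.3 CPM under T-REX at 3 h. Its fold changes of 0.51 and 0.46 over probe alone and DMSO were not called (adjusted p = 0.428 and 0.443). The remaining SF3A3, SF3B3, SF3B4 and SF3B6 were called in no comparison.

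PRPF4 is a U4/U6 protein that binds PRPF3. It had 47.9, 49.6, 51.5 and 45.2 CPM under T-REX at 12 h, 46.2, 46.8, 43.2 and 48.3 after light alone, 53.5, 49.2, 49.9 and 48.7 after probe alone, and 51.5, 45.9, 42.9 and 47.0 with DMSO. These overlapped throughout, and its 9 fold changes lay between -0.10 and 0.09 with no call.

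PRPF4B, a kinase that phosphorylates tri-snRNP proteins, was the only gene called at 3 h. It had 263, 280.0, 268 and 243 CPM under T-REX, 291, 291, 287 and 296 after light alone, 303, 312, 304 and 281 after probe alone, and 306, 326, 292 and 318 with DMSO. T-REX was below all 12 control libraries. The log2 fold change was -0.24 ± 0.049 against DMSO (adjusted p = 0.00783), -0.14 against light alone (0.171) and -0.19 against probe alone (0.0624). PRPF4B was called below probe alone as well when T-REX replicate 3 (adjusted p = 0.0388) or probe alone replicate 4 (adjusted p = 0.0359) at 3 h was removed. The single call against DMSO at 3 h became 2 or 3 in 7 of the 16 fits without 1 library, for which the shares of all genes are not given here. At 12 h PRPF4B had -0.03, 0.00 and -0.12. The other tri-snRNP genes, PRPF3, PRPF6, PRPF8 and PRPF31, gave no call, and PRPF8, the scaffold at the catalytic centre, averaged 1279 CPM.

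The 7 other PRPF genes, which act in U1 recruitment, activation or the second step, gave no call in the 9 comparisons. PRPF38A, an activation factor, was below all 3 controls at 6 h: it had 135, 129.7, 129 and 134 CPM under T-REX, and the 12 control libraries ran from 137 to 160.4. The fold changes of -0.11, -0.14 and -0.17 were not called (adjusted p = 0.402, 0.537 and 0.109). PRPF40B had the largest positive mean of the coding genes at 6 h (0.19, 0.33 and 0.17, with adjusted p = 0.660, 0.754 and 0.726). PRPF39 was 1 of 2 genes, with LSM8, above all 3 controls at 12 h, by at most 0.05 and 0.07. At that time 17 of the 47 genes were below all 3 controls. The shares of all genes above or below all 3 are not given here.

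**Figure D4:**
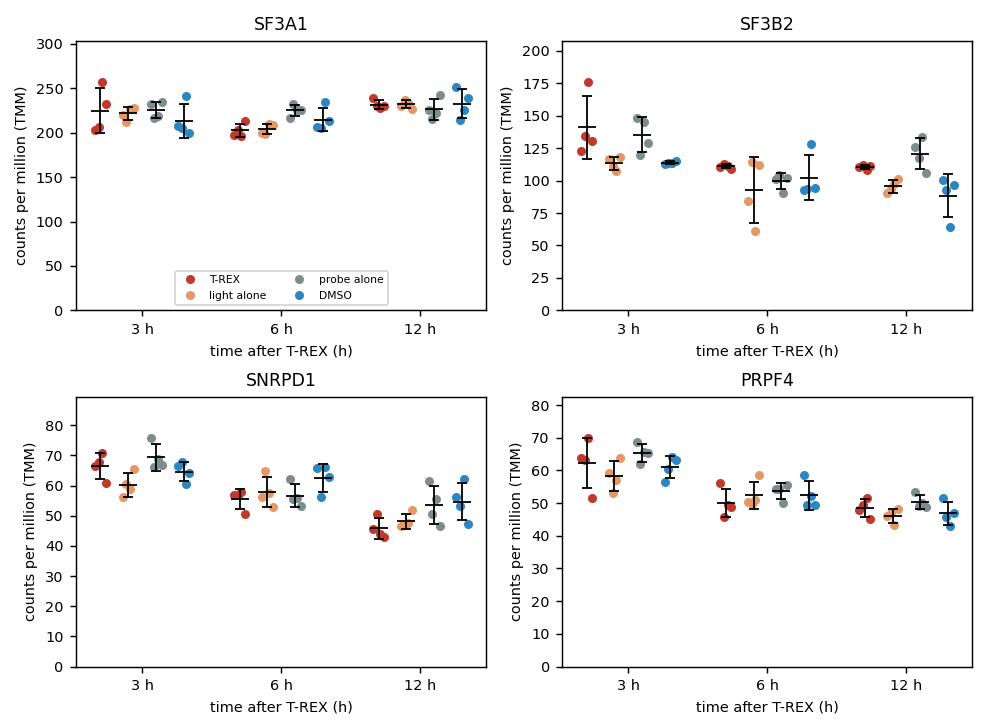
CPM (TMM, axes from 0) of SF3A1, SF3B2, SNRPD1 and PRPF4 by time in hours; points are libraries coloured by arm, bars the mean and SD of 4. SF3A1 and PRPF4 overlap between arms at 12 h, and SF3B2 shows low libraries at 61.1 (light alone, 6 h) and 64.1 (DMSO, 12 h). The T-REX libraries of SNRPD1 overlap those of every control at 12 h.

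In the U6 ring, LSM3 was below all 12 controls at 3 h. It had 153, 146, 153 and 149 CPM under T-REX, and controls ran from 155 to 182. The fold changes were -0.15, -0.16 and -0.19, with adjusted p of 0.215, 0.142 and 0.0508. At 12 h LSM3 was called against DMSO (-0.20, adjusted p = 0.0345) and not against light alone (-0.13) or probe alone (-0.06). LSM4 had -0.40 against probe alone at 12 h without a call (95% interval -0.64 to -0.16, adjusted p = 0.124), the most negative value of that comparison. It was called without DMSO replicate 1 (adjusted p = 0.0354) or 3 (adjusted p = 0.0198) at 12 h, which are not part of the comparison but of the shared estimate of spread. LSM7 was 0.39, 0.26 and 0.39 above the controls at 3 h, with adjusted p of 0.250, 0.394 and 0.153. T-REX replicate 3 was the highest T-REX library at 3 h for LSM4 (34.8 CPM), LSM7 (15.9 CPM) and SF3A2 (29.8 CPM).

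LSM12 and LSM1 were called at 12 h against DMSO and against neither other control. LSM12, a cytoplasmic LSM protein, had 69.7, 73.3, 66.7 and 72.3 CPM under T-REX, 77.5, 65.4, 68.8 and 65.6 after light alone, 65.5, 65.9, 65.9 and 64.4 after probe alone, and 90.9, 81.8, 111 and 74.2 with DMSO. Only the DMSO libraries reached above 77.5, and every T-REX library lay above every probe alone library. T-REX was 0.34 below DMSO (adjusted p = 0.0116) but 0.02 and 0.11 above light alone and probe alone. Probe alone was itself 0.45 below DMSO (adjusted p = 0.00521), and light alone was 0.37 below it without a call (adjusted p = 0.280). The LSM12 call against DMSO held in all 16 fits without 1 library, among them the one without the high DMSO replicate 3.

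LSM1, which takes the place of LSM8 in the cytoplasmic decay ring, had 22.4, 22.0, 22.0 and 21.5 CPM with DMSO at 12 h and 15.1, 19.2, 19.2 and 18.1 under T-REX. It was called against DMSO (-0.30, adjusted p = 0.0352) and not against light alone (-0.10) or probe alone (-0.07). LSM5, of the U6 ring, likewise was called against DMSO (-0.26, adjusted p = 0.0415), where DMSO replicate 3 had 70.5 CPM and the others 50.7 to 53.5. Without that library LSM5 was not called. LSM14B, a cytoplasmic RNA granule protein, had a log2 fold change of -0.31 against DMSO at 6 h (adjusted p = 0.102) and of -0.06 and -0.04 against light alone and probe alone. It was called against DMSO when light alone replicate 3 at 6 h was left out (adjusted p = 0.0484). LSM10, part of the U7 particle that processes histone transcripts, had the second most negative mean at 12 h, after SNRPD3 and before LSM4. Its fold changes were -0.26, -0.25 and -0.24 (adjusted p = 0.509, 0.601 and 0.340).

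Of the 9 genes called against DMSO at 12 h, 8 were lower and 1 was higher, beside 6.79% and 4.09% of all genes in these directions. How many were called moved with single libraries, between 3 genes without T-REX replicate 1 (5.41% of all genes called) or replicate 3 (6.7%) and 14 without DMSO replicate 4 (18.1%). The 3 genes were LSM12, SF3B1 and SNRPD3 in the first case and LSM1, LSM12 and SNRPD3 in the second. LSM12 and SNRPD3 were called in all 16 of these fits, whereas the call was lost in 1 fit for SF3B1 (without T-REX replicate 3), 4 for LSM1, 5 for LSM3, 9 for SF3B5 and 10 for LSM5. The count was 6 without DMSO replicate 3 (8.82% of all genes). It was 5 without DMSO replicate 1 (11.4%) or 2 (8.23%), without T-REX replicate 4 (6.92%) or without probe alone replicate 2 (9.57%). When only T-REX and DMSO libraries were fitted, 1 gene was called, SNRPD3 (adjusted p = 0.0251). The share of all genes in that last fit is not given here.

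The controls were compared with one another in the same way. Probe alone against DMSO at 12 h called 2 genes, LSM12 and SF3B2, beside 5.11% of all genes. The other 8 comparisons called 0 of the 47 in edgeR's test. At 3 h the shares over all genes were 0.00681% for light alone against DMSO, 0.00681% for probe alone against DMSO and 0.232% for light alone against probe alone. At 6 h they were 0.00681%, 0.0272% and 0.0613%, and at 12 h light alone gave 0.0136% against DMSO and 0.415% against probe alone. Before adjustment, between 3 and 12 of the 47 genes had a p of at most 0.05 in those 8 comparisons, beside 5.11% to 14.4% of all genes, and DESeq2 called 7 over all 9. The total of 2 became 10 without DMSO replicate 1, 7 without DMSO replicate 4 and 4 without DMSO replicate 3 at 12 h. It became 1 without probe alone replicate 3 at 12 h, and 4 when T-REX replicate 3 of 3 h was removed. The shares of all genes called between controls by DESeq2 or in these fits without 1 library are not given here. The T-REX effect, taken over the mean of the 3 controls, differed between times for 0 of the 47 genes in edgeR's interaction test at each of 3 pairs of times (before adjustment, 3 of 47 had a p of at most 0.05 for 6 against 3 h, 6 for 12 against 3 h and 0 for 12 against 6 h, beside 7.47%, 11% and 2.96% of all genes). DESeq2 also called 0. Over all genes, 0.0%, 0.116% and 0.0% were called.

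More of these transcripts were called between 3 and 12 h than between T-REX and any control, though in a fit of 48 libraries rather than 16. In every arm the genes called between these times were nearly all lower at 12 h, with all libraries scaled together, while the median of all genes was close to 0. Under DMSO, 19 of the 47 genes were lower at 12 than at 3 h and 0 higher. Of all 14685 genes, 2697 (18.4%) were lower and 2997 higher. The median of the 47 genes was -0.17, against 0.01 for all genes. The same comparison in the other arms was added once the DMSO result was known and used libraries that the arms do not share. It gave 23 lower under T-REX (20.6% of all genes), 18 after light alone (19.0%) and 23 after probe alone (21.0%), with medians of -0.26, -0.16 and -0.22. Under DMSO, 6 were already lower at 6 h (6.97% of all genes), among them PRPF38B, PRPF39, PRPF4, PRPF4B and SNRPB2. Without DMSO replicate 2 at 3 h this count was 3, with the share of all genes in that fit not given here.

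Genes lower at 12 h in all 4 arms numbered 12 of 47 (25.5%), beside 10.2% of all genes. Among them were SNRPD1, SNRPD3 and SNRPE of the Sm ring, SF3B4, PRPF4, PRPF4B, PRPF19, PRPF38A, PRPF38B, PRPF39 and LSM14A. Higher in all 4 arms were 0 of 47, beside 11.7%. In at least 1 arm, 28 were lower (59.6%, beside 31.9%) and 2 were higher (4.26%, beside 31.9%): SF3B3 after light alone and SNRPA1-DT after probe alone. By sign alone, 33 of the 47 were below 0 in all 4 arms, beside 32.6% of all genes. No test of the list was made, and these genes were chosen with such results known. Each time point was a separate harvest, so that hours after treatment and harvest cannot be told apart.

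PRPF4 fell by 0.43 ± 0.074 in DMSO cells, by 0.40 ± 0.074 in T-REX cells, by 0.38 ± 0.074 after light and by 0.44 ± 0.073 after probe (adjusted p = 5.15e-06, 1.47e-05, 4.07e-05 and 2.58e-06, edgeR). PRPF38B had fold changes of -0.35, -0.27, -0.38 and -0.38 in the same order. SNRPD1 fell by 0.59 ± 0.077 under T-REX and by 0.29 ± 0.076 with DMSO (adjusted p = 2.20e-08 and 0.00169). After light alone and probe alone its fold changes were -0.36 and -0.44, each called. SNRPD3 itself had -0.18, -0.34, -0.25 and -0.23 in the order DMSO, T-REX, light alone and probe alone, each called. It was thus lower at 12 h in the control arms as well.

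The roles are described by their counts, with no test between them. Lower at 12 h were 18.4% of all genes under DMSO, 20.6% under T-REX, 19.0% after light alone and 21.0% after probe alone. Of the 7 other PRPF genes, 6 were lower under DMSO and 6 under T-REX, with medians of -0.33 and -0.30. Of the 7 Sm genes, 3 were lower under DMSO and 5 under T-REX (medians -0.19 and -0.36). The same 5 genes (SNRPD1, SNRPD3, SNRPE, SNRPF and SNRPG) were lower after probe alone, and all of them but SNRPG after light alone. The U6 ring gave 0 of 7 with DMSO, after light alone and after probe alone, and 1 of 7 (LSM7) under T-REX. PRPF8, SF3A1 and SF3B1 were called in no arm. The values of PRPF8 were -0.02, 0.06, 0.08 and -0.05 in the order DMSO, T-REX, light alone and probe alone. Across the 47 genes, the mean change of the 4 arms was related to GC content with a Pearson's r of 0.19 and a Spearman's rho of 0.21, a description over genes that share the same libraries.

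**Figure D5:**
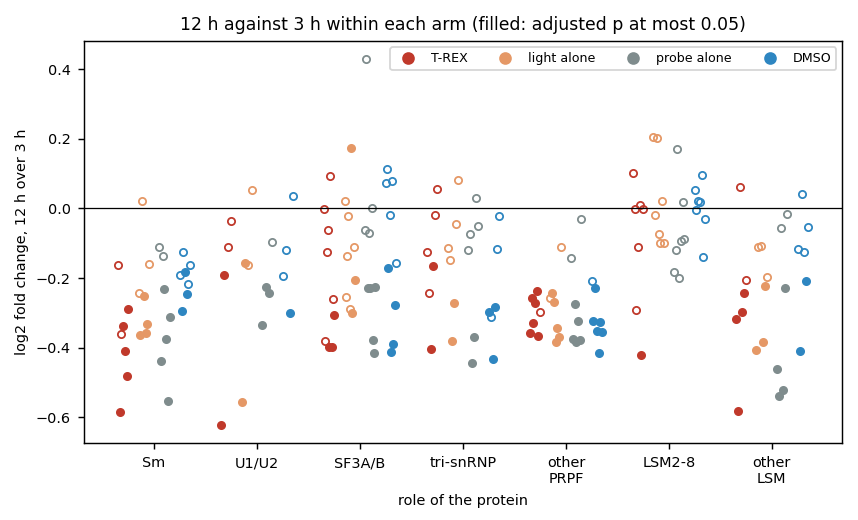
Log2 fold change of 12 h over 3 h within each arm (colours) for the 46 protein-coding genes, by role; filled points have an adjusted p of at most 0.05. The Sm and other PRPF groups lie mostly below 0 in all arms, while the LSM2 to LSM8 ring straddles 0.

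Genes around the snRNPs were read from 5 lists, whose counts stand beside 5.99% and 10.9% of all genes called against DMSO at 3 and 12 h and 0.218% against light alone at 6 h. The 7 SNRNP-named genes, left out by the naming rule, gave no call in the 9 comparisons of T-REX with a control. The largest mean at 12 h was that of SNRNP27, a tri-snRNP protein (-0.22, -0.17 and -0.27, with adjusted p = 0.388, 0.594 and 0.0972). Of 20 U2 and tri-snRNP partners, 1 was higher and 2 lower against DMSO at 3 h, and 2 lower against DMSO at 12 h. SNU13, which binds the U4 stem, was lower than DMSO by 0.24 at 3 h and by 0.44 at 12 h (adjusted p = 0.0366 and 0.000327), with -0.16 and -0.03 against light alone and probe alone at 12 h. Probe alone was itself called below DMSO for SNU13 at 12 h (-0.41).

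Of 21 factors of the PRPF19 complex and the catalytic steps, 2 were lower against DMSO at 3 h, and 1 was lower and 1 higher at 12 h. PPIL1, a cyclophilin of the activated spliceosome, was lower than DMSO at 3 h (-0.36, adjusted p = 0.00646) and 12 h (-0.39, adjusted p = 0.00199), with -0.19 and 0.06 against light alone and probe alone at 12 h. Probe alone against DMSO at 12 h also called PPIL1 lower (-0.45) and 2 other factors of this list higher, beside 5.11% of all genes. Of 10 minor spliceosome genes, 1 was higher against DMSO at 3 h and 1 at 12 h. ARMC7 had the largest mean at 12 h (0.31, 0.26 and 0.20, with adjusted p = 0.451, 0.608 and 0.468).

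Of 21 genes of snRNP assembly, capping and transport, the targeted gene NCBP1 itself was called higher against DMSO at 3 and 12 h (0.50 and 0.73, adjusted p = 0.0290 and 0.00252) and against light alone at 6 h (0.80, adjusted p = 0.0214). Against probe alone it was 0.25, -0.19 and -0.04 at 3, 6 and 12 h, and no call was made. NCBP1 was also called between controls, for probe alone over DMSO at 12 h (0.77) and for light alone over probe alone at 6 h (-0.99). The differences from DMSO at 12 h and from light alone at 6 h were thus not limited to T-REX. The plasmid's NCBP1 reads are not separated from those of the cell's own gene. One further gene of this list was lower than DMSO at 12 h. No gene of the 5 lists was called with 1 sign against 2 or more of the controls at any time. At 12 against 3 h under DMSO, 2 of 7, 9 of 21, 11 of 20, 7 of 21 and 5 of 10 genes of these lists were lower, in the order SNRNP-named, assembly, partners, PRPF19 complex and minor spliceosome, beside 18.4% of all genes, and 0, 1, 0, 0 and 2 were higher.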

How the data were processed

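RNA-seq of the 48 libraries was read from 3 tables, 1 for each time point. The authors deposited raw counts per Ensembl gene, log2 CPM values scaled by library and, for each library, 2 scores called RUV factors, whose method is not given in the sources used here. Libraries were made with a stranded kit after rRNA depletion. For its RNA-seq over time the study lists cutadapt, TopHat and Cufflinks (cuffnorm and cuffdiff). Which program made the table of raw counts, and the genome build, are not given in the sources used here, nor is the treatment of reads that fit several places, so no gene coordinates were taken from the tables. A further RUV-corrected table at each time was not used here. None of the deposited files read here held the authors' fold changes or p-values.

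Gene counts were fitted as deposited with edgeR 4.0.16 in R 4.3.3 (TMM scaling, filterByExpr, robust quasi-likelihood F-test, Benjamini-Hochberg adjustment over all 14685 genes), using the 16 libraries of a time point or, between times, all 48. TMM factors were 0.954 to 1.06, and the common biological coefficient of variation was 9.35% to 11.9%. Levels are TMM-scaled CPM, and the SD between replicates was taken on log2(CPM + 0.5). At the median total, the Poisson error of a member's mean count was 8.56% to 62.9% of its SD between replicates (median 29.5%). The edgeR fits within a time point and across times were tested on simulated data.

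Genes given with values are those the study names (SNRPD3, SF3A1, PRPF4, SNRPD1 and SF3B2), genes called with 1 sign against 2 or more of the controls, the 3 per direction and time with the largest mean fold change of 1 sign against all 3 controls, genes called for a change of the T-REX effect with time, genes called between controls, and, for each gene list without a gene called with 1 sign against 2 or more of the controls, the gene with the largest mean at 12 h. Any other gene was named after its values were seen. The members, lists and tests were chosen with earlier results of these data known. Alternatives were DESeq2 1.42.0, RLE scaling, no filter, a replicate block, the RUV factors as covariates, only the 2 arms compared, limma 3.58.1 on the deposited log2 CPM, the SNRNP-named genes added, and each library left out. Promoter windows came from RefSeq on GRCh38.p14 (250 bases before to 50 after the start) and GC content from the transcripts of GENCODE release 29. Protein sequences were not used here. The values of 1 member and 1 marker gene are not reported here, and the counts include that member.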

Additional observations from a re-analysis of the deposited data

Results flagged for a closer look

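For 22 members given with values, the 12 groups of 4 libraries were each searched for a library far from the others (the gap to the nearest library over the whole range, above Dixon's critical value). Of 264 groups, 16 held one, and chance alone gives about 1 in 20. Levels are CPM, and the value after each library is the ratio.

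In DMSO replicate 3 several genes stood apart. LSM5 was high at 12 h (70.5, others 50.7 to 53.5, ratio 0.8559) and low at 3 h (48.3, others 55.3 to 56.2, ratio 0.8827), LSM3 was low at 3 h (156, others 175 to 178, ratio 0.8465) and SF3B2 was high at 6 h (128, others 93.0 to 94.2, ratio 0.9674). SNRPA1-DT was high in DMSO replicate 4 at 6 h (4.24, others 3.38 to 3.39, ratio 0.9794). Libraries of different times come from separate harvests, so a replicate number does not name the same RNA across times.

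Under T-REX, replicate 4 was low at 3 h for SF3B1 (398, others 452 to 460.3, ratio 0.8719) and PRPF38A (140.3, others 159 to 162, ratio 0.8668), and low at 6 h for SNRPD1 (50.7, others 56.8 to 58.0, ratio 0.8330). PRPF40B was low in replicate 3 at 6 h (10.6, others 14.1 to 14.7, ratio 0.8616), and PRPF4B was high in replicate 2 at 12 h (258, others 236 to 239, ratio 0.8771).

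With probe alone, SF3B1 was low in replicate 4 at 3 h (448, others 491 to 493, ratio 0.9572), PRPF38A was low in replicate 2 at 3 h (153, others 163 to 164, ratio 0.8876) and LSM5 was high in replicate 4 at 12 h (51.0, others 46.8 to 47.4, ratio 0.8531). With light alone, PRPF4B was low in replicate 3 at 12 h (232, others 253 to 255, ratio 0.9036), LSM7 was low in replicate 3 at 6 h (6.47, others 8.67 to 9.09, ratio 0.8398) and PRPF4 was high in replicate 4 at 6 h (58.5, others 49.8 to 50.8, ratio 0.8853). SNRPD3 held no such library in its 12 groups.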

How the results depend on the processing

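SNRPD3 was called against all 3 controls at 12 h in each of the 8 fits that kept every library. Of the fold changes of members given with values, 4406 kept their direction and side of the threshold, 72 became called, 76 lost the call and 0 turned sign. Counts of the 47 members that moved by more than 1.5 times are given in the order light alone, probe alone and DMSO. A count printed without the share of all genes in the same fit is not a result about these genes. DESeq2 gave 3, 1 and 3 at 3 h, 2 against DMSO at 6 h and 2 against probe alone at 12 h. It called 2 genes with 1 sign against 2 or more of the controls at 3 h, beside 3.48% of all genes. Between controls it made 7 calls. RLE scaling gave 2 against DMSO at 3 h. With the deposited RUV factors as covariates, the counts were 7, 8 and 13 at 3 h, 4, 3 and 7 at 6 h, and 4, 6 and 18 at 12 h, with 10, 3 and 6 genes called with 1 sign against 2 or more of the controls, while calls between controls rose from 2 to 60. The shares of all genes were then 11.8%, 17.4% and 20.8% at 3 h, 8.19%, 1.75% and 7.14% at 6 h, 8.62%, 6.14% and 26.7% at 12 h, and 14.4%, 2.34% and 8.95% against 2 or more of the controls. For calls between controls, the share of all genes in that fit is not given here, so the 60 is not a result about these genes. How those factors were made is not given, and the cause was not tested. With only the 2 arms compared, with fewer samples in the fit, the counts were 0 against DMSO at 3 h, and 3, 2 and 1 at 12 h.

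The replicate block gave 1 against probe alone and 2 against DMSO at 3 h, 1 gene called with 1 sign against 2 or more of the controls at 3 h, 6 against DMSO at 12 h, and 12 in place of 19 for 12 against 3 h with light alone. The numbers were not taken to pair the samples, since not every same-numbered pair correlated above 0.1: correlations ran from -0.652 to 0.584 at 3 h, -0.536 to 0.474 at 6 h and -0.347 to 0.234 at 12 h, and 4, 9 and 3 of 16 libraries correlated best with their own number. Replicate 3 at 3 h was the only number with every pair above 0.1 (lowest 0.142). Limma, no filter and the SNRNP-named genes added moved no count by more than 1.5 times.

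Leaving out 1 library gave 0 to 0, 0 to 1 and 1 to 3 at 3 h, 0 to 0, 0 to 0 and 0 to 1 at 6 h, and 0 to 2, 0 to 3 and 3 to 14 at 12 h. Genes called with 1 sign against 2 or more of the controls numbered 0 to 1, 0 to 0 and 0 to 3, calls between controls 1 to 10, and calls of the T-REX effect between times 0 to 0. For DMSO, 6 against 3 h gave 3 to 9 and 12 against 3 h gave 16 to 22. For 12 against 3 h, T-REX gave 21 to 27, light alone 17 to 21 and probe alone 22 to 25. Depth limits the lowest genes most: Poisson error came to 62.9% of the SD between replicates for SNRPA1-DT, whose mean count was 112, and every member had at least 55 counts in every library.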
